A study of Mus musculus with 20 samples.

Results

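The effect of a Zdhhc9 knockout on messenger RNA in mouse corpus callosum was measured by comparing 6 libraries labelled knockout with 5 labelled wild type. These 11 of the 20 libraries in the series were taken by their tissue and genotype labels, and all 15519 of the 46517 listed genes with enough counts were tested. The callosum was cut from frozen coronal brain sections, and the RNA was made into stranded messenger RNA libraries. The other 9 libraries are optic nerve, 5 from knockout and 4 from wild-type mice, and enter only where named. The sample labels call the mice knockouts and the design text of the series calls them a knockdown, and the sources used here give no allele, strain, sex or age. Libraries carry the names in the labels, such as KO_CCg_27 and WT_CCg_28, in which the number is that of the sample. No label says whether each callosum came from a separate mouse, so the p-values measure the spread between these libraries.

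Zdhhc9 codes for an enzyme of the Golgi apparatus that attaches palmitate, a fatty acid, to cysteines of proteins, and it works together with the accessory protein made from Golga7. Palmitate anchors proteins such as the Ras GTPases to membranes, and the step can be reversed by other enzymes. The gene lies on the X chromosome, and human mutations in it cause intellectual disability. In white matter it is expressed in oligodendrocytes, the cells that wrap axons in myelin, a membrane rich in cholesterol and galactolipids. At the level of the brain that was dissected, the callosum lies between the cerebral cortex above it and the lateral ventricle and striatum below it, so a dissected piece can carry along some grey matter, which holds the cell bodies of neurons.

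Total estimated counts were 17333746 to 25028817 in the knockout and 15401130 to 25375187 in the wild-type libraries. Sample numbers came in 2 formats, with 2 digits in 4 libraries (2 of each genotype) and with 6 or 7 digits in 7 libraries (4 knockout, 3 wild type). With genotype in the fit, 4309 genes (27.8%) differed between the formats at an adjusted p under 0.05. Every effect of the knockout was therefore also fitted with the format as a covariate. The fold changes of the 2 formats themselves differed at an adjusted p under 0.05 for 0 genes by the edgeR interaction test, with 418 at an unadjusted p under 0.05 and no other tool run.

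Zdhhc9 itself and its neighbours on the X chromosome come first, since they check the labels. Zdhhc9 (chromosome X, 48171969 to 48208878, minus strand, mm10) stood at 195, 191, 190.8, 207.8 and 157.9 CPM, the count scaled to library size by TMM, in WT_CCg_28, WT_CCg_30, WT_CCg_685232, WT_CCg_717652 and WT_CCg_7198587. The knockout libraries ran from 42.14 to 56.72 CPM with a median of 49.01. The groups were far apart, and all 11 libraries matched their labels. Zdhhc9 fell by 1.95 on the log2 scale (SE 0.099, adjusted p = 1.8e-06), by 1.86 with neuron level and format as covariates and by 1.86 with the oligodendrocyte level. Of the 15519 genes tested, 6 (0.0387%) changed at an adjusted p under 0.05, and Apln was the other one on the X chromosome.

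Apln codes for apelin, a peptide ligand that acts on a receptor of blood vessels and other tissues, and its gene (X, 48025146 to 48034853) ends 137.1 kb from Zdhhc9. Its level was 48.77, 50.72, 34.4, 40.62 and 40.31 CPM in the wild-type libraries, in the order given for Zdhhc9, and 18.87 to 27.57 CPM (median 24.46) in the knockout. Every knockout library was below every wild-type one. Apln fell by 0.83 on the log2 scale in callosum (SE 0.121, adjusted p = 0.044). It fell by 1.01 in optic nerve too (SE 0.122, adjusted p = 0.000616), where it was 1 of 3 genes past the threshold. The difference between the tissues was 0.18 (SE 0.165, adjusted p = 0.837). The apelin receptor gene Aplnr and the second ligand gene Apela had too few counts to be tested.

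Genes around Zdhhc9 lay on both sides of 0, and of these Apln alone passed the threshold. Among the 20 tested genes on each side, 3 were lower and 4 higher at an unadjusted p under 0.05, against 6.89% lower and 4.81% higher among all genes, and their median log2 fold change was 0.05 beside 0.06 for all 539 tested genes of the X chromosome and -0.01 for all tested genes. Sash3, an adaptor gene of lymphocytes that lies 10.4 kb from Zdhhc9, was at -0.54 (SE 0.200, adjusted p = 0.383) and Rab33a, a Golgi GTPase gene, at -0.33 (SE 0.124, adjusted p = 0.393). Ocrl, an inositol phosphatase gene, was at 0.39 and Smarca1, a chromatin remodeller gene, at 0.51, and both lie beyond Apln as seen from Zdhhc9. With neuron level and format as covariates these were 0.20 for Ocrl and 0.19 for Smarca1, while Apln was at -0.85 (adjusted p = 0.021). Apln did not pass with the neuron level alone (-0.74, adjusted p = 0.0713), with cortical and striatal levels (-0.64, adjusted p = 0.961) or with the oligodendrocyte level (-0.72, adjusted p = 0.594).

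**Figure D1:**
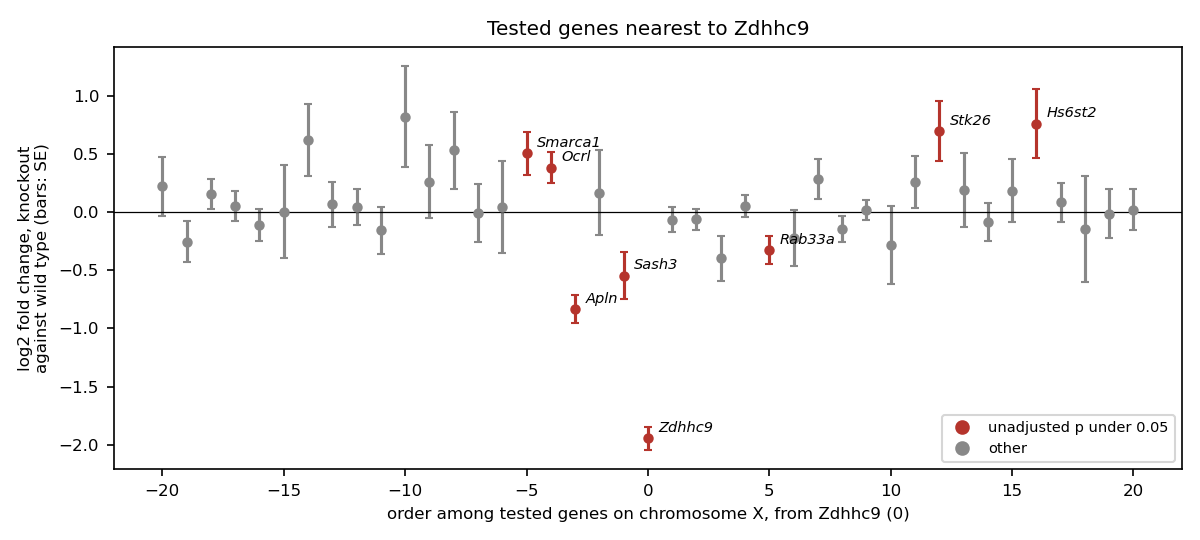
Log2 fold change (knockout against wild type, bars: SE) of Zdhhc9 and the 20 nearest tested genes on each side, in their order along the X chromosome. Zdhhc9 at -1.95 and Apln at -0.83, 3 genes away, are the lowest points, and genes between and beyond them lie on both sides of 0.

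The other 4 genes that passed were Svep1 and Kit, which rose, and Slco3a1 and Slc45a3, which fell. Knockout libraries were all below wild type in 0.754% of tested genes and all above in 0.155%, and each of the 6 called genes was of one kind or the other. Svep1 codes for a large extracellular matrix protein that binds integrins and acts in the growth of lymph vessels. It stood at 3.34, 2.584, 2.806, 3.116 and 2.562 CPM in the wild-type libraries and at 7.605 to 10.54 CPM (median 8.543) in the knockout. The lowest knockout library had more than any wild-type one by a wide margin, in both number formats. Svep1 rose by 1.63 on the log2 scale (SE 0.133, adjusted p = 0.00023). In every fit with covariates it stayed past the threshold, with 1.78 for neuron level and format (SE 0.141, adjusted p = 0.000201) and 1.80 for the oligodendrocyte level (SE 0.163, adjusted p = 0.000995). Itga9, which codes for an integrin subunit that binds the Svep1 protein, was at -0.16 (SE 0.136, adjusted p = 0.626).

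Kit codes for the receptor of stem cell factor, a receptor tyrosine kinase. Its level was 26.65, 25.26, 28.46, 23.73 and 21.48 CPM in the wild-type libraries and 38.87 to 57.89 CPM (median 46.94) in the knockout, with no overlap. Kit rose by 0.95 (SE 0.124, adjusted p = 0.0272), and by 1.03 with neuron level and format as covariates (adjusted p = 0.0239). With the oligodendrocyte level the value was 0.97 but the adjusted p 0.238, and with cortical and striatal levels 1.10 and 0.110. Kitl, the gene of its ligand, ran from 21.2 to 32.16 CPM (median 30.61) in the knockout and from 20.11 to 31.64 CPM in the wild type, and was at 0.20 (SE 0.136, adjusted p = 0.552). The receptor transcript thus differed between the groups and the ligand transcript overlapped.

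Slco3a1 codes for an organic anion transporter that also carries prostaglandins and thyroid hormone. Its level was 115.2, 106.8, 73.4, 105.7 and 103.4 CPM in the wild-type libraries and 52.09 to 65.82 CPM (median 57.28) in the knockout. One wild-type library, WT_CCg_685232, lay between the others and the knockout. Slco3a1 fell by 0.81 (SE 0.112, adjusted p = 0.0362), and was at -0.70 with neuron level and format as covariates (adjusted p = 0.139). Slc45a3 codes for a sugar transporter that is expressed in oligodendrocytes. It stood at 10.92, 11.86, 8.417, 11.22 and 9.949 CPM in the wild type and at 4.647 to 6.933 CPM (median 5.602) in the knockout, where the same wild-type library was again the lowest of its group. Slc45a3 fell by 0.87 (SE 0.129, adjusted p = 0.0486), and was at -0.75 with both covariates (adjusted p = 0.208). With the oligodendrocyte level Slco3a1 was at -0.61 (adjusted p = 0.529) and Slc45a3 at -0.68 (adjusted p = 0.707). Cortical and striatal levels gave -0.61 for Slco3a1 and -0.69 for Slc45a3 (adjusted p = 0.961 for each). Of the other members of these families, none of the 7 others listed for Slco or the 2 others tested for Slc45 passed.

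**Figure D2:**
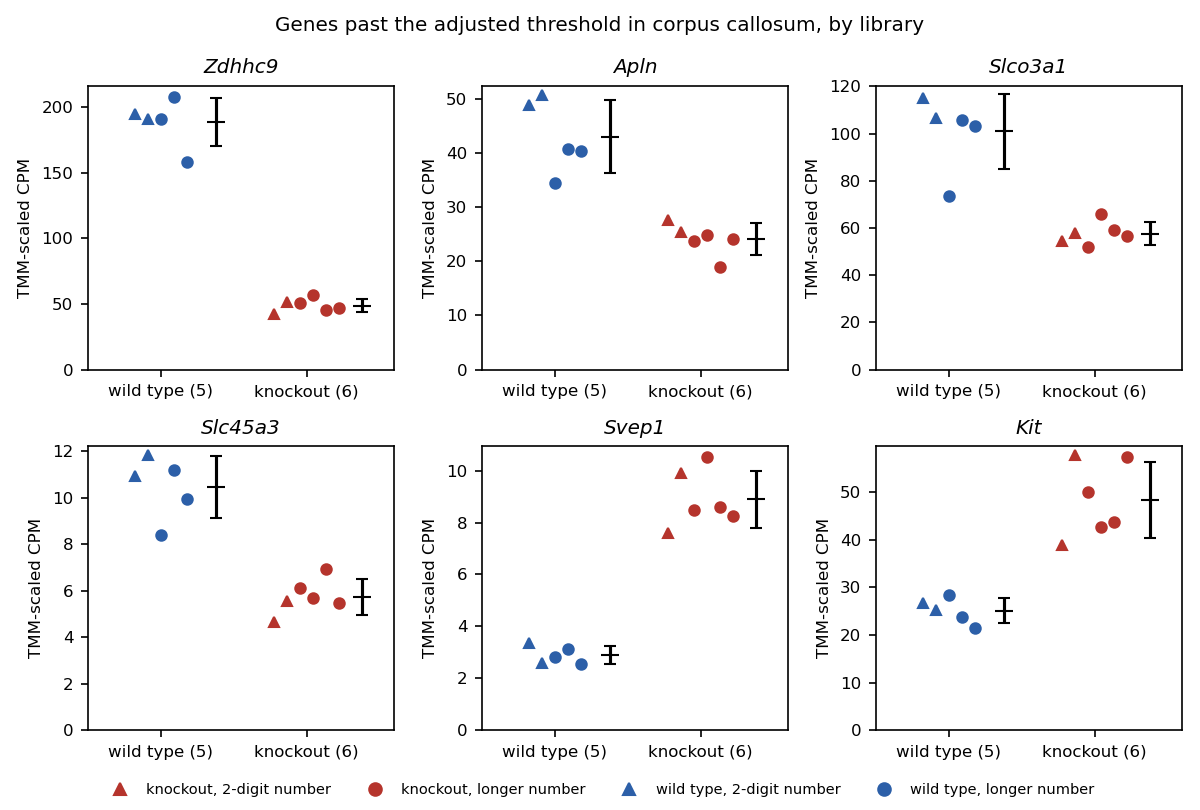
Level in each callosum library (points, TMM-scaled CPM, axes from 0) of the 6 genes that passed, with the mean and SD of each genotype beside the points; triangles are 2-digit and circles longer sample numbers. Knockout and wild-type libraries do not overlap for any of the 6, and the lowest wild-type point of Apln, Slco3a1 and Slc45a3 is WT_CCg_685232.

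Taking the number format into the fit added 4 genes, so that 10 passed (0.0644%), all of the added ones lower. Piezo2, a mechanically gated ion channel gene, stood at 7.167, 5.484, 8.864, 7.27 and 6.319 CPM in the wild type and at 2.031 to 4.151 CPM (median 3.116) in the knockout. Gab2, which codes for a docking protein downstream of receptor tyrosine kinases, stood at 43.63, 37.38, 37.53, 42.14 and 39.67 against 24.98 to 30.93 CPM (median 28.81). For both, every knockout library was below every wild-type library. With the format as a covariate, Piezo2 fell by 1.24 (SE 0.186, adjusted p = 0.0452) and Gab2 by 0.49 (SE 0.074, adjusted p = 0.0452). The added genes also held Cyp51, described with the sterol genes, and B3galt5, which codes for a galactosyltransferase of glycolipids, at -0.52 (SE 0.079, adjusted p = 0.0452). The B3galt5 groups overlapped, at 73.59 to 116.4 CPM in the knockout and 101 to 169.2 CPM in the wild type.

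How many genes passed depended on single libraries. Without WT_CCg_685232, the wild-type library with the highest neuron marker level, 42 genes passed (5 higher, 37 lower). With any other library left out the count was 2 to 6. Svep1 passed in all 11 fits with 1 library left out and Kit in 5. Slco3a1 and Slc45a3 passed in 2 each, and Apln in 1, that without WT_CCg_685232. Among the genes past the threshold without WT_CCg_685232 alone, and named by the rule used here, were Smtnl2, Rftn1 (which codes for the lipid raft protein raftlin), the potassium channel gene Kcns2, the opioid receptor gene Oprk1, Hapln2, H2-K1, Ifi27, Oasl2, Sqle, Insig1 and Cyp51. With all libraries, Smtnl2 was at -1.38 (SE 0.228, adjusted p = 0.0893), Rftn1 at -0.76 (SE 0.128, adjusted p = 0.0947), Kcns2 at 1.04 (adjusted p = 0.217) and Oprk1 at 1.30 (adjusted p = 0.139).

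Grey matter marker levels varied widely between libraries and overlapped between genotypes. The mean log2 CPM of the 17 tested neuron markers was 6.48, 7.17, 8.10, 7.29 and 7.98 in the wild-type libraries and 6.69 to 8.52 (median 8.20) in the knockout. The knockout library KO_CCg_29 lay between the lowest wild-type libraries, and the other 5 ran from 8.01 to 8.52. Snap25, a gene of synaptic vesicle fusion, was at 0.65 and turned to -0.15 with neuron level and format as covariates. It turned to -0.05 with cortical and striatal levels and to -0.47 with the oligodendrocyte level. Snap25 is itself among the neuron markers, so a value near 0 at equal neuron level is partly built in. The oligodendrocyte marker level ran the other way, at 10.85, 10.71, 10.16, 10.59 and 10.26 in the wild type and 9.56 to 10.46 (median 9.91) in the knockout. The groups overlapped for both levels. In bulk tissue, fewer cells of a type and less RNA per cell cannot be told apart.

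Markers of striatal projection neurons had the highest median among the 4 neuronal lists. All 12 had an unadjusted p under 0.05, higher, with a median log2 fold change of 0.82, where 4.81% of all genes were higher at that p. Cortical excitatory neuron markers had 1 of 12 higher (median 0.57), the general neuron markers 4 of 17 (median 0.63) and GABAergic interneuron markers 1 of 9 (median 0.47), so that the cortical and GABAergic counts of 1 are near that share. No member of these lists passed over all genes. Drd1, a dopamine receptor gene of striatal neurons, stood at 17.39, 13.5, 28.18, 20.57 and 26.05 CPM in the wild type and at 26.28 to 62.74 CPM (median 40.87) in the knockout. The lowest knockout libraries overlapped the highest wild-type ones. The Drd1 log2 fold change was 1.78 among the 2-digit libraries and 0.51 among the longer numbers, and the median of the striatal list was 1.80 and 0.30 in the same order. The 2-digit knockout libraries KO_CCg_27 and KO_CCg_29 had the lowest cortical levels of the knockout group, 4.16 and 3.47, beside 5.19 to 5.64 in the other 4. With the neuron level and the format as covariates the striatal median was 0.70 and 6 of 12 were higher at an unadjusted p under 0.05 (2.47% of all genes). With cortical and striatal levels as covariates 2 genes passed, Zdhhc9 and Svep1.

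**Figure D3:**
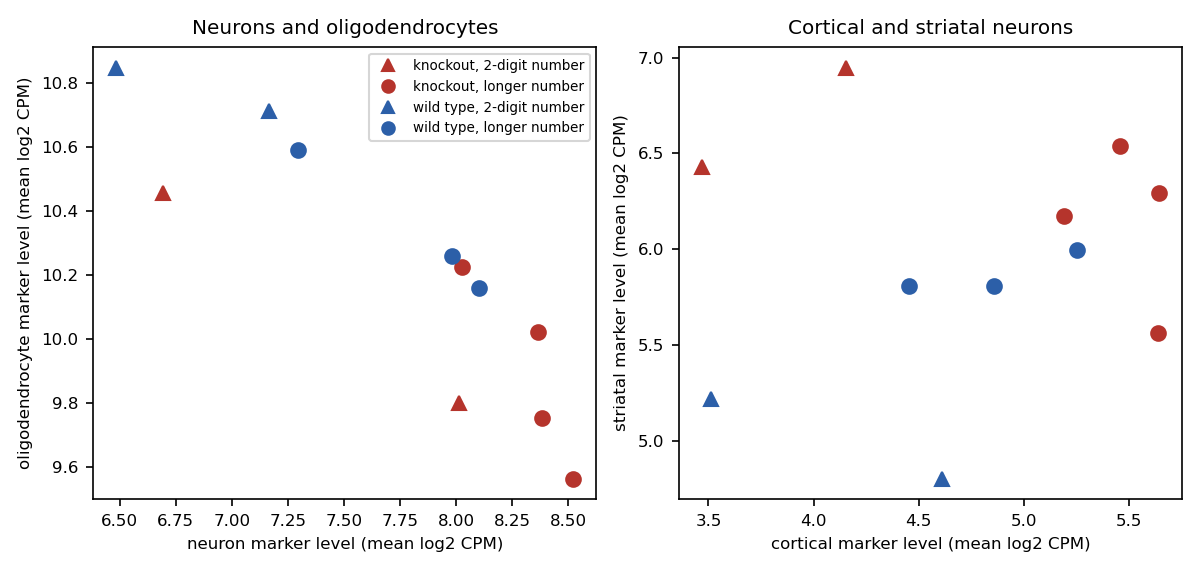
Marker levels of the 11 callosum libraries (mean log2 CPM of each list): oligodendrocyte against neuron level on the left and striatal against cortical level on the right, coloured by genotype and shaped by number format. Libraries with a high neuron level have a low oligodendrocyte level, and the 2-digit knockout libraries combine a low cortical with a high striatal level.

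Marker levels that differ with genotype share part of their variation with it. When a fold change shrinks after a marker level enters the fit, the shrinkage cannot be divided between the tissue makeup and the genotype. The fits with covariates below describe what was left at equal marker level and are not corrected values.

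Genes of cholesterol synthesis were lower in the knockout as a group of small, even differences. Of the 20 tested enzymes, all 20 had a negative log2 fold change, with a median of -0.42 (-0.01 over all genes). An unadjusted p under 0.05 was reached by 16 (6.89% of all genes lower). In 6 of the 20 every knockout library was below every wild-type library (0.754% of all genes). With neuron level and format as covariates 12 of 20 were lower at an unadjusted p under 0.05 (3.83% of all genes) with a median of -0.35. With the oligodendrocyte level 8 of 20 were (2.79% of all genes), with a median of -0.26. None passed over all genes without a covariate, and Cyp51 did with the format. The lowest enzymes came from both ends of the pathway, which first builds squalene from acetyl units and then turns it into cholesterol.

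The stretches just before the start sites of 3 of these enzyme genes and of the sterol sensing gene Insig1 are shown as examples. All 4 lay lower in the knockout without overlap, as did others that are not shown. Sterol-regulated transcription factors act through short elements in such promoters. Each line holds the 250 bases before the annotated RefSeq start on GRCm38.p6, 5′ to 3′ on the strand of the gene. Capitals mark each match, on either strand, to the sterol regulatory element spelled TCACNCCAC or to the box spelled CCAAT.
Hmgcs1, chr13:119690101-119690350, plus strand: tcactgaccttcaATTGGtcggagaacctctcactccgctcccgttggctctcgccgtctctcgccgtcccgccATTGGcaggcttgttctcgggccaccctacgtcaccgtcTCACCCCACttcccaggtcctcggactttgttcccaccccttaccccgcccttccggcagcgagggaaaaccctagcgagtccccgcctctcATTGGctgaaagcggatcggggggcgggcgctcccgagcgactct
Cyp51, chr5:4104698-4104947, minus strand: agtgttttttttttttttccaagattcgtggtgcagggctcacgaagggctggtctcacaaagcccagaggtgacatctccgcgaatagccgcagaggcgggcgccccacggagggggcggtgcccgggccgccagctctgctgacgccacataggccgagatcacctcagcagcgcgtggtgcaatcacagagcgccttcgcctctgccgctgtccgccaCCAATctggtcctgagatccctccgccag
Msmo1, chr8:64733579-64733828, minus strand: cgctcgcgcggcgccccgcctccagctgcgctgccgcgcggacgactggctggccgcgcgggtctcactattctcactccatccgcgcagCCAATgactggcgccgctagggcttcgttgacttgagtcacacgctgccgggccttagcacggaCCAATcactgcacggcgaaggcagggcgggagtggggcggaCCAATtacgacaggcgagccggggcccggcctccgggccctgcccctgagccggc
Insig1, chr5:28071162-28071411, plus strand: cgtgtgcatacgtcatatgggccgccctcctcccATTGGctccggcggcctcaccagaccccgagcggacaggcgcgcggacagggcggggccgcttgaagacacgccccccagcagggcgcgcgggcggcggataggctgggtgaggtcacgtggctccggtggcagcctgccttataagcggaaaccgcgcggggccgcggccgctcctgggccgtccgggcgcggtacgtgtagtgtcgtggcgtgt
The element TCACNCCAC occurred in 1 of 29 promoters found for 21 of the 29 sterol genes, that of Hmgcs1, where it begins 137 bases before the start, and in 1.05% of all 32851 promoters in the table. CCAAT occurred in 20 of the 29 (69%) and in 33.8% of all promoters. It was found 3 times in Hmgcs1 and in Msmo1 and once in Cyp51 and in Insig1, and no match overlapped another. Sc5d, also lower without overlap but not shown, had 1 CCAAT match. Dhcr7, likewise lower and not shown, had 2 in a promoter and 0 in its others. Some genes have several promoters in the table, so the 29 are not independent. A match of letters is no measurement of binding, and elements spelled otherwise were not searched.

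Hmgcs1, whose enzyme makes the precursor of mevalonate, stood at 626.2, 603.8, 466.6, 525.5 and 459.7 CPM in the wild type and at 341.1 to 417.7 CPM (median 361.4) in the knockout. Cyp51, the sterol demethylase gene, stood at 152.1, 157.7, 126.5, 138.4 and 125.8 against 85.94 to 108.3 CPM (median 98.73). Msmo1, the gene of the next demethylation step, stood at 147.1, 142.5, 104.5, 112.4 and 106.4 against 72.89 to 93.12 CPM (median 79.51). In all of these the knockout libraries were below the wild-type ones, and the wild-type 2-digit libraries were the highest. The log2 fold change was -0.53 for Hmgcs1 (SE 0.106, adjusted p = 0.139), -0.51 for Cyp51 (SE 0.090, adjusted p = 0.112) and -0.58 for Msmo1 (SE 0.116, adjusted p = 0.139). With the format as a covariate Cyp51 fell by 0.49 (SE 0.074, adjusted p = 0.0452).

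Among genes of sterol sensing and uptake, 3 of 9 were lower at an unadjusted p under 0.05 (6.89% of all genes). In 3 every knockout library was below every wild-type one (0.754% of all genes). The list median was -0.10, and 3 of the 9 lay above 0. Insig1, which codes for the protein that holds back the sterol sensor in the endoplasmic reticulum, stood at 167.1, 154.4, 125.9, 153.8 and 144.7 CPM in the wild type and at 93 to 119.1 CPM (median 104.5) in the knockout. The groups did not overlap. Insig1 was at -0.51 (SE 0.096, adjusted p = 0.139), and at -0.30 with the oligodendrocyte level as a covariate. In optic nerve Insig1 was at -0.02 (SE 0.135), beside -0.33 for Hmgcs1 and -0.36 for Msmo1 there. The difference between tissues had an adjusted p of 0.725 for Insig1.

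**Figure D4:**
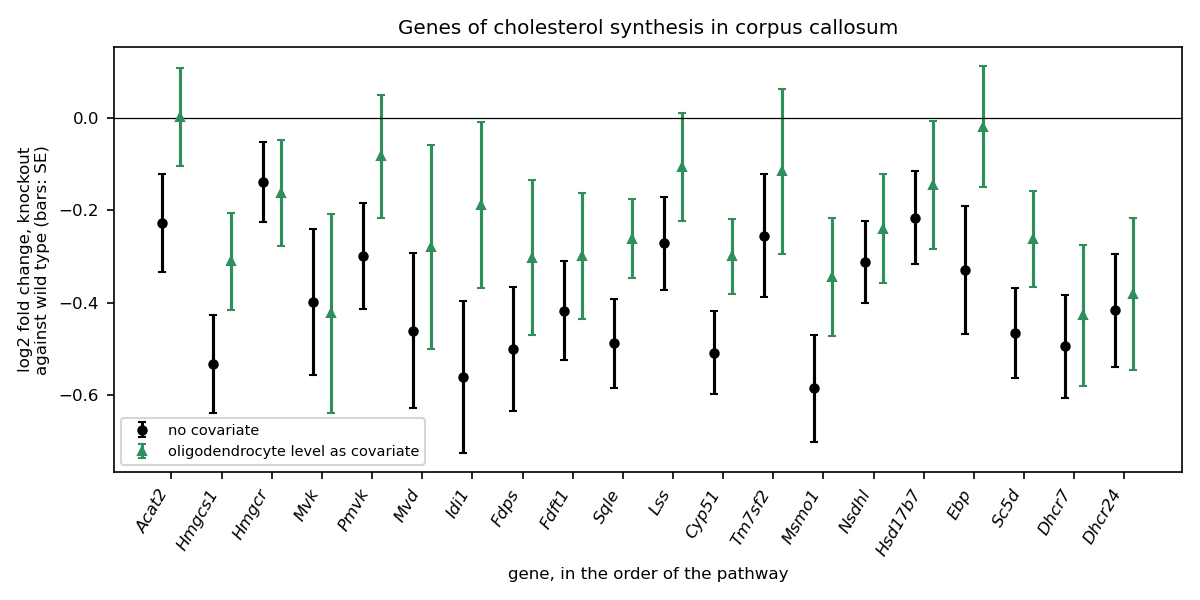
Log2 fold change (knockout against wild type, bars: SE) of the 20 tested enzymes of cholesterol synthesis in pathway order, without a covariate (circles) and with the oligodendrocyte marker level (triangles). All 20 enzymes lie below 0 without the covariate, Msmo1 among the lowest at -0.58, and most values move towards 0 with the covariate.

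Of 15 fatty acid synthesis genes, 11 were lower at an unadjusted p under 0.05 (median -0.28, 6.89% of all genes lower). With neuron level and format 6 were (3.83% of all genes) and with the oligodendrocyte level 1 (2.79% of all genes). Scd1, a stearoyl-CoA desaturase gene, was at -0.71 (SE 0.18, adjusted p = 0.247) and at -0.20 with the oligodendrocyte level. Me1, the gene of the malic enzyme that makes NADPH for lipid synthesis, was the 1 lower with that level, at -0.28 without a covariate (adjusted p = 0.342) and -0.32 with that level. Of 10 sphingolipid and galactolipid genes 4 were lower (median -0.28), with 3 and 0 under the same covariates, beside the same shares of all genes. Ugt8a, whose enzyme makes galactosylceramide, was at -0.68 (SE 0.196, adjusted p = 0.288) and at -0.11 with the oligodendrocyte level. Ugt8a is itself among the markers that form this level, so part of its move towards 0 is built in.

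Oligodendrocyte markers were lower in the knockout, with smaller differences at equal neuron level. Of 16 markers of mature cells 12 were lower at an unadjusted p under 0.05 (median -0.55, 6.89% of all genes lower). With neuron level and format 6 were (median -0.20, 3.83% of all genes). None passed over all genes. Mog, a gene of the outer myelin surface, stood at 820.7, 816.6, 516.2, 745.6 and 575.3 CPM in the wild type and at 377.5 to 629.7 CPM (median 463.9) in the knockout. The groups overlapped, with KO_CCg_29 the highest knockout library. Mog was at -0.49 (SE 0.169, adjusted p = 0.366), and at -0.22 with both covariates.

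The markers did not shift by an equal amount. Hapln2, a matrix link protein of the nodes of Ranvier, stood at 272.7, 231.5, 134.1, 230 and 162 CPM in the wild type and at 59.53 to 131.9 CPM (median 90.84) in the knockout, without overlap. It was at -1.15 (SE 0.228, adjusted p = 0.139). Trf, the transferrin gene, was at -0.74 (SE 0.157, adjusted p = 0.194), and its highest knockout library (1934 CPM) was just above its lowest wild-type one (1927 CPM). Cnp, a gene of the cytoplasmic channels of myelin, was at -0.35. At equal oligodendrocyte level the list median was 0.01 by construction, since that level is the mean of these same markers. Members on both sides of 0 follow from this as well. Of its members 2 were lower and 1 higher at an unadjusted p under 0.05 (2.79% of all genes lower and 2.07% higher). At that level Hapln2 was at -0.43 (SE 0.097, adjusted p = 0.588) and Trf at -0.31 (SE 0.094, adjusted p = 0.862), while Mog was at 0.02 and Cnp at 0.05.

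Along the lineage, markers of newly formed oligodendrocytes were lower in 4 of 14 (median -0.24) and precursor markers in 2 of 10 (median -0.15), beside 6.89% of all genes. With neuron level and format these were 2 and 0 (medians -0.03 and 0.00), beside 3.83% of all genes. Enpp6, a choline phosphodiesterase gene of newly formed cells, was at -0.73 (SE 0.198, adjusted p = 0.262) and at -0.30 with both covariates. Gpr17, a receptor gene of the same stage, was at -0.38 (adjusted p = 0.457) and Pdgfra, the growth factor receptor gene of precursors, at -0.26 (adjusted p = 0.381). Apod, a lipid carrier gene of old oligodendrocytes, was at -0.84 (SE 0.200, adjusted p = 0.238). Anln, a septin-binding gene of the myelin scaffold, was at -1.03 (SE 0.312, adjusted p = 0.309), and KO_CCg_29 at 415.4 CPM lay above the other 5 knockout libraries (127.9 to 225.5 CPM).

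Ptgds, which codes for prostaglandin D2 synthase and marks a subset of mature oligodendrocytes as well as the meninges, was not lower in the knockout. It was picked out after its values were seen. Its level was 903.7, 915.6, 509.4, 726.3 and 593.3 CPM in the wild type and 537 to 1304 CPM (median 701.5) in the knockout, so that the groups overlapped, with the highest knockout library above the wild-type range, and its log2 fold change was 0.12 (SE 0.239, adjusted p = 0.849). At equal oligodendrocyte level it was higher by 0.82 (SE 0.094, adjusted p = 0.00814), one of 3 genes past the threshold in that fit with Zdhhc9 and Svep1. At equal neuron level and format it was at 0.49 (SE 0.137, adjusted p = 0.426). Il33, an alarmin cytokine gene listed with it for the same subset, was at 0.10 (SE 0.189, adjusted p = 0.836), at 0.29 with neuron level and format (adjusted p = 0.722) and at 0.56 with the oligodendrocyte level (adjusted p = 0.862). Of the other 3 genes of that list all lay below 0 without a covariate. The summed level of the 12 meningeal fibroblast markers was 46.31 to 110.1 CPM in the knockout and 52.11 to 109.5 CPM in the wild type, and 0 of 12 had an unadjusted p under 0.05. Their part in the Ptgds value was not tested.

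Microglia markers were lower in the knockout as well. Each of the 17 tested lay below 0 (median -0.34), and 14 were lower at an unadjusted p under 0.05 (6.89% of all genes). In 5 of the 17 every knockout library was below every wild-type one (0.754% of all genes). Their summed level was 925.6, 889.1, 763.8, 873.6 and 854.4 CPM in the wild type and 594.1 to 746.3 CPM (median 677.9) in the knockout, without overlap. With neuron level and format 8 of 17 were lower (median -0.25, 3.83% of all genes lower) and with the oligodendrocyte level 5 (median -0.16, 2.79% of all genes). With single libraries left out the median ran from -0.39 to -0.31. None passed over all genes. Olfml3, a secreted protein of microglia, was at -0.48 (SE 0.098, adjusted p = 0.159) and -0.40 with the oligodendrocyte level. C1qa, a complement subunit gene, was at -0.46 (SE 0.107, adjusted p = 0.22) and Itgam, an integrin gene of myeloid cells, at -0.39 (SE 0.085, adjusted p = 0.209). Csf1, the growth factor for microglia, stood at 84.54, 83.31, 72.09, 90.27 and 72.59 CPM in the wild type and at 46.63 to 66.54 CPM (median 53.94) in the knockout. Csf1 was at -0.53 (SE 0.114, adjusted p = 0.2) and at -0.25 with the oligodendrocyte level.

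Genes of antigen presentation and of the interferon response were lower too. The summed level of 9 MHC class I genes was within 176.6 to 184.1 CPM in the 6 knockout libraries and ran from 175.5 to 284.8 CPM in the wild type. Of these genes 7 were lower at an unadjusted p under 0.05 (median -0.53, 6.89% of all genes lower). With neuron level and format 5 were (3.83% of all genes) and with the oligodendrocyte level 1 (2.79% of all genes). H2-D1, a class I heavy chain gene, stood at 58.65, 65.01, 41.64, 51.57 and 82.11 CPM in the wild type and at 34.38 to 45.59 CPM (median 40.36) in the knockout. WT_CCg_685232 lay within the knockout range and WT_CCg_7198587 was the highest. H2-D1 was at -0.58 (SE 0.152, adjusted p = 0.248), and the list median ran from -0.65 without WT_CCg_685232 to -0.37 without WT_CCg_7198587. Beside the same shares of all genes, 10 of 16 interferon-stimulated genes were lower (median -0.59), with 4 and 1 under the same covariates. Their summed level ran from 156.8 to 201.4 CPM in the knockout and from 165.1 to 274.7 CPM in the wild type, with WT_CCg_685232 the lowest of its group. Ifi27 was at -0.64 (SE 0.118, adjusted p = 0.127), and WT_CCg_685232 stood at 44.77 CPM where the other wild-type libraries were at 64.99 to 65.49 CPM.

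Cd74, the invariant chain of MHC class II, passed only with neuron level and format as covariates. It stood at 1.392, 2.478, 2.928, 1.558 and 2.733 CPM in the wild type and at 0.404 to 1.357 CPM (median 1.035) in the knockout, just without overlap. It was at -1.16 without a covariate (SE 0.296, adjusted p = 0.247) and fell by 1.78 with both (SE 0.234, adjusted p = 0.0239). The other class II genes tested did not pass, and H2-Aa and H2-Eb1 had too few counts. Blood cell markers summed to 170.3 to 245.6 CPM in the knockout and 172.6 to 515.5 CPM in the wild type, where WT_CCg_7198587 was the highest. Their part in the immune values was not tested.

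Astrocyte markers were close to level, with 2 of 12 lower at an unadjusted p under 0.05 (median -0.11, 6.89% of all genes lower). Of 8 reactive astrocyte genes tested, all 8 lay below 0 and 2 were lower at that p (median -0.34). With the oligodendrocyte level 6 of these 8 lay below 0 (median -0.165). Gfap, the intermediate filament gene of reactive astrocytes, stood at 1100, 982, 624.3, 933.5 and 958.6 CPM in the wild type and at 507.6 to 787.3 CPM (median 614.8) in the knockout. The groups overlapped through WT_CCg_685232 alone. Gfap was at -0.58 (SE 0.155, adjusted p = 0.257) and at -0.19 with the oligodendrocyte level. Endothelial markers were lower in 1 of 14 (median -0.05), near the 6.89% of all genes.

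**Figure D5:**
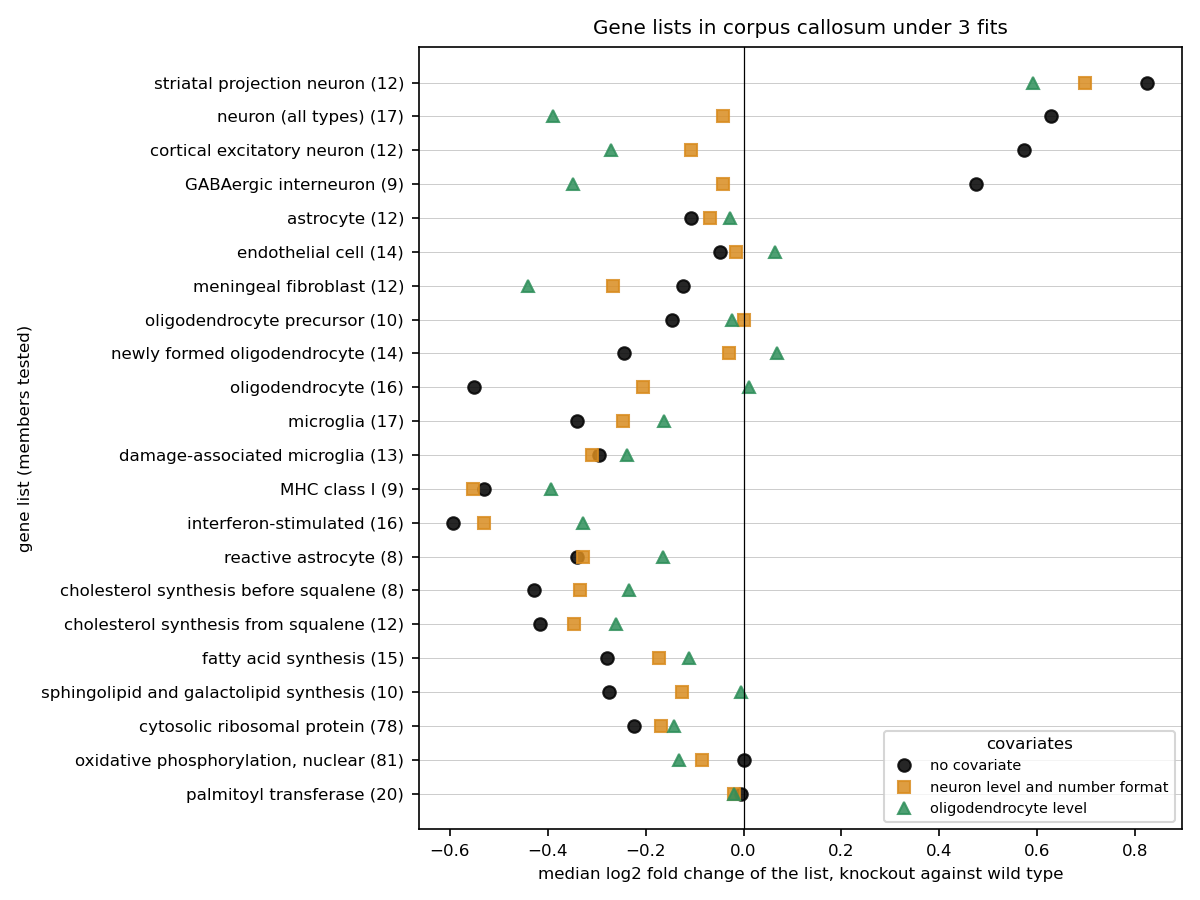
Median log2 fold change of 22 gene lists (members tested in brackets) without a covariate (circles), with neuron level and number format (squares) and with the oligodendrocyte level (triangles). Oligodendrocyte markers move from -0.55 to 0.01 across the fits, the latter by construction, since their own mean is the covariate. Microglia markers stay at or below -0.16 and cholesterol synthesis at or below -0.23. With the oligodendrocyte level, ribosomal protein genes are at -0.14 and nuclear oxidative phosphorylation genes at -0.13.

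Among 20 other palmitoyl transferase genes tested, 0 were lower and 1 higher at an unadjusted p under 0.05 by edgeR, beside 6.89% and 4.81% of all genes. Their median was -0.01 (range -0.42 to 0.67), and the count of 1 is near its share. Among 11 partners and depalmitoylating enzymes 2 were lower at that p (median 0.00). The higher transferase was Zdhhc13, at 12.24 to 16.68 CPM (median 15.09) in the knockout and 10.78 to 14.35 CPM in the wild type, and was at 0.28 (SE 0.113, adjusted p = 0.397). Golga7, the partner of Zdhhc9, was at -0.46 (SE 0.174, adjusted p = 0.39), at -0.22 with neuron level and format, and at 0.06 with the oligodendrocyte level. Of 9 genes of Ras family substrates 1 was lower, Rras at -0.40 (SE 0.143, adjusted p = 0.381).

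Among 78 genes of the cytosolic ribosome 76 lay below 0, and 30 were lower at an unadjusted p under 0.05 (median -0.23), beside 6.89% of all genes. With neuron level and format 6 of 78 were lower, beside 3.83% of all genes, and with the oligodendrocyte level 3 of 78, beside 2.79% (median -0.14). Rpl30 stood at 183.3, 187.1, 168.5, 187.4 and 208.3 CPM in the wild type and at 125.2 to 162.8 CPM (median 142.9) in the knockout, without overlap, and was at -0.37 (SE 0.089, adjusted p = 0.238). Ribosomal protein genes have near-identical pseudogenes that can share reads. Among 81 nuclear genes of oxidative phosphorylation 0 had an unadjusted p under 0.05 in either direction by edgeR (median 0.00), and with neuron level and format 75 were negative and 2 lower at that p (median -0.09). With the oligodendrocyte level 75 were negative and 1 lower (median -0.13), close to the ribosomal genes in that fit. All 13 mitochondrial genes of the pathway lay above 0, with 0 at an unadjusted p under 0.05 by edgeR (median 0.13).

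In optic nerve the medians of 7 lists that were lower in callosum were nearer to 0 or of the opposite sign. The list medians there, with the callosum value after each, were -0.16 against -0.55 for oligodendrocyte markers, 0.03 against -0.34 for microglia markers, 0.33 against -0.53 for MHC class I and 0.33 against -0.59 for interferon-stimulated genes. They were -0.21 against -0.42 for cholesterol synthesis from squalene, -0.16 against -0.43 for the steps before it, and 0.00 against -0.23 for ribosomal protein genes. The median of all tested genes was 0.03 in optic nerve and -0.01 in callosum. With the libraries taken as unpaired, 0 of 16440 tested genes differed between the tissues in the knockout effect by the edgeR interaction test. At an unadjusted p under 0.05 there were 1123. With the size factors of DESeq2 0 passed (1086 at an unadjusted p under 0.05). The called genes gave, in optic nerve, 0.69 for Svep1 (SE 0.173, adjusted p = 0.636), 0.36 for Kit (SE 0.146), -0.19 for Slco3a1 (SE 0.120) and -0.42 for Slc45a3 (SE 0.114, adjusted p = 0.878). Callosum minus optic nerve was 0.94 for Svep1 (SE 0.238), 0.59 for Kit (SE 0.196), -0.61 for Slco3a1 (SE 0.162) and -0.44 for Slc45a3 (SE 0.158), each with an adjusted p of 0.725.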

How the data were processed

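RNA was sequenced from 20 mouse libraries with a stranded messenger RNA kit, per the labels' protocols. The authors deposited 1 table of estimated counts per gene and library, not scaled to a common total, with mm10 as the genome build per the submitters' processing notes. The name of the deposited table credits kallisto for the counting, and the sources used here give neither its version nor an annotation. Counts were rounded, and genes were kept by filterByExpr (minimum count 10, minimum total 15). The 6 knockout and 5 wild-type callosum libraries were fitted with TMM scaling and the quasi-likelihood test of edgeR 4.0.16 (R 4.3.3), adjusted by Benjamini-Hochberg over 15519 genes with a threshold of 0.05. The biological coefficient of variation was 23.7%. The SE of a fold change came from it and its F statistic. Alternatives were covariates (number format, and marker levels as mean log2 CPM with a prior count of 2), number formats apart, other scalings and filters, DESeq2 1.42.0, limma-voom (limma 3.58.1), a joint fit and single libraries left out. Positions came from GENCODE vM21 on mm10 for 46005 identifiers, matched without their version, and promoters from RefSeq. Scripts were tested on simulated counts.

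The members and gene lists were chosen with earlier results of these data known. Named genes were Zdhhc9, those past the threshold without covariates or with format, neuron or cortical and striatal levels (up to 10 in each direction), the 10 rises and 10 falls with the smallest p at a mean log2 CPM of at least 1, up to 4 members of each list by p and a fixed set of glial and neuronal markers. Predicted genes and pseudogenes were skipped. Ptgds and the neighbours of Zdhhc9 were named after their values were seen. Some genes are not reported here.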

Additional observations from a re-analysis of the deposited data

Results flagged for a closer look

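Of 116 groups of 5 or 6 libraries examined (each named gene and each marker level, within a genotype), 10 had 1 library far from the others, and chance gives this in about 1 in 20 groups. In the wild type it was WT_CCg_685232 each time. It stood at 73.4 CPM for Slco3a1 (the others at 103.4 to 115.2), at 44.77 CPM for Ifi27 (64.99 to 65.49) and at 45.14 CPM for Ocrl (29.84 to 33.69). In the knockout KO_CCg_29 stood apart with a neuron marker level of 6.69 (8.01 to 8.52), Anln at 415.4 CPM (127.9 to 225.5) and Kcns2 at 7.9 CPM (12.19 to 13.89). KO_CCg_717651 stood apart with H2-K1, a class I heavy chain gene, at 36.29 CPM (25.56 to 29.29) and Kitl at 21.2 CPM (28.58 to 32.16). Itgam in KO_CCg_27 was at 20.54 CPM (24.73 to 26.94), and Sash3 in KO_CCg_693452 at 3.433 CPM (1.662 to 2.271).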

How the results depend on the processing

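Zdhhc9 and Svep1 passed in each fit of the knockout effect in callosum except that of the 2-digit libraries alone, where 0 genes passed (986 at an unadjusted p under 0.05 by edgeR). The count of changed genes, 6, was 10 with number format, 3 with neuron level, 3 with oligodendrocyte level, 2 with cortical and striatal levels and 2 in the longer numbers alone. It was 174 by DESeq2, 2786 by limma-voom with sample quality weights and 41 in the joint fit, and 2 to 42 with single libraries left out. With the oligodendrocyte level, values turned for Mog (0.018), Cnp (0.049), Gpr17 (0.12), Snap25 (-0.47), Golga7 (0.056) and Itga9 (0.11). Snap25 also turned with the neuron level (-0.15), with format added (-0.15) and with cortical and striatal levels (-0.048). Mog and Cnp are among the markers that form the oligodendrocyte level, and Snap25 among those of the neuron level. Their values in the fits with that level are therefore partly built in. Ptgds turned by limma-voom (-0.15) and without KO_CCg_29, in a range of -0.081 to 0.227 with single libraries left out. Il33 turned in the 2-digit libraries alone (-0.02) and without KO_CCg_29 (range -0.016 to 0.26). The cause of these changes was not tested. Some callosum and optic nerve libraries share a sample number, and no label says whether these came from the same mouse. Deviations of same-numbered libraries from their group means correlated at -0.15 to 0.13. These values cannot settle it, since grey matter carried along with the callosum can hide a shared origin. With the sample number as a block the tissue interaction called 4 genes in place of 0.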
